A study of Mus musculus with 15 samples.

Results

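The transcripts described here are those of 9 genes that encode enzymes, a regulator and a transporter of hepatic glucose and glycogen metabolism: G6pc, Pck1, Fbp1, Pcx, Gckr, Pklr, Slc2a2, Gys2 and Pygl. They were chosen by name, with earlier results of these data known. They are 9 of the 37991 gene identifiers in the count table, and all 9 had enough counts to be among the 14258 genes tested. RNA was sequenced from whole liver of female C57BL/6 mice, 5 animals in each of 3 groups. The groups were wild type at 90 days of age (young WT, YWT), wild type at 600 days (old WT, OWT), and S6K1 knockout at 600 days (old S6K1 KO, OKO), in which mice lacked ribosomal S6 kinase 1, the product of Rps6kb1, in the whole body. WT and KO animals came from heterozygous breeding, were kept on a light/dark cycle of 12 h and had free access to chow, and feeding state and time of day at collection are not given in the sources used here. There was no young KO group among the 15 libraries, so genotype was compared at 600 days alone, and the comparison of old S6K1 KO with young WT changes age and genotype together.

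The liver holds blood glucose steady by storing it as glycogen after a meal, breaking glycogen down between meals and making new glucose from lactate, glycerol and amino acids during longer fasts. Gluconeogenesis runs glycolysis backwards except at its irreversible steps, which Pcx (pyruvate carboxylase) and Pck1 (cytosolic phosphoenolpyruvate carboxykinase), Fbp1 (fructose bisphosphatase) and G6pc (the catalytic subunit of glucose-6-phosphatase) bypass. Insulin lowers transcription of Pck1 and G6pc, while glucagon, acting through cAMP, and glucocorticoids raise Pck1 and G6pc, so these transcripts follow feeding and the time of day.

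Start regions of 8 of the 9 genes were found in the RefSeq promoter table of build GRCm38.p6, which gave 10 windows because Pklr and Pcx have 2 starts each, and Gys2 had no entry. The 250 bases before the start are shown for Pck1 (chr2:173152823-173153072, plus strand) and G6pc (chr11:101367466-101367715, plus strand), whose levels moved together across livers, for Pklr (chr3:89136373-89136622, plus strand, the start with a TATA box), which differed most with age, and for Pygl (chr12:70227684-70227933, minus strand), whose group means were lowest in young WT and highest in old S6K1 KO livers. Each sequence runs 5′ to 3′ on the gene's strand, and capitals mark the motif matches named after them.
Pck1: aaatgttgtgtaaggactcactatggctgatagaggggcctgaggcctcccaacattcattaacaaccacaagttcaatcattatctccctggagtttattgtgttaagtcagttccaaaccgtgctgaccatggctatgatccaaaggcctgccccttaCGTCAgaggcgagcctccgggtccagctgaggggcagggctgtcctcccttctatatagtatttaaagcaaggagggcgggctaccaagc
G6pc: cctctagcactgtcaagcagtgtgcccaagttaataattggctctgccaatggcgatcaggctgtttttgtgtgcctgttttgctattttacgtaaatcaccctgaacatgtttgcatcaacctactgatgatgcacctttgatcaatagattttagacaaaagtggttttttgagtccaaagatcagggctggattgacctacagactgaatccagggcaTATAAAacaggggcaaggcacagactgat
Pklr: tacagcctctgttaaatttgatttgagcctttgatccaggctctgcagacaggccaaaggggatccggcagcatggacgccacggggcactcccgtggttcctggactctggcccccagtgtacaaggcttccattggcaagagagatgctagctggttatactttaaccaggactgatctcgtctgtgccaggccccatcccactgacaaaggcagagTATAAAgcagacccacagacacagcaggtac
Pygl: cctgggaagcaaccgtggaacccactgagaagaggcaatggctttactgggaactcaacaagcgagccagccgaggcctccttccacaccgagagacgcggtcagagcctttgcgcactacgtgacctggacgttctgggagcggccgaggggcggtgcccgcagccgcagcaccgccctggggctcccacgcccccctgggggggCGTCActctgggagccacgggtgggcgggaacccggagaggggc

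Motifs were searched on both strands in these windows. The short core of the cAMP response element, TGACG or CGTCA on the other strand, was in the Pck1 window, 90 to 86 bases before the start, and in the Pygl window, 44 to 40 bases before it, and 17.8% of the 32851 windows in the table held it. TATAAA, the TATA box, was 29 to 24 bases before the G6pc start and 31 to 26 bases before the Pklr start, in a motif that 12.4% of all windows held. The E-box CACGTG occurred in a single Pcx window (6.02% of all windows). Matches to the full cAMP response element TGACGTCA (1.55% of all windows), which contains the short core, to the forkhead core GTAAACA (3.17%), to the HNF1 element (0.00913%) and to the direct repeat bound by HNF4 and related receptors (0.0335%) were found in none of the 10 windows.

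Total counts per library lay between 21801754 and 38065359. Rps6kb1 was at 38.3 ± 3.14 CPM in young WT, 38.4 ± 4.21 in old WT and 17.0 ± 2.23 in old S6K1 KO livers (mean ± SD, n = 5 each; CPM are counts scaled to a library of 1000000 after TMM scaling), and each of the 5 KO libraries was below all WT libraries. The 8 hepatocyte markers took a summed 89145 to 139881 CPM of young WT, 98897 to 148472 of old WT and 118526 to 154159 of old S6K1 KO libraries, and 2 of 8 (Apoa1 and Cps1) were lower with age. Of 8 periportal markers 2 (Cyp2f2 and Arg1) and of 8 pericentral markers 3 (Glul, Oat and Slc1a2) were lower with age, and 0 of either list passed between genotypes, where 1 and 2 had an unadjusted p below 0.05. In old S6K1 KO against old WT livers, 7 of 8 genes in each of these 3 lists had log2 fold changes above 0. Their medians were 0.26 (hepatocyte), 0.22 (periportal) and 0.22 (pericentral), beside 0.00080 over all genes tested, and 0 of 8 hepatocyte markers passed. Leukocyte markers (8 genes) summed to 64.1 to 157, 116 to 213 and 61.6 to 120.3 CPM in young WT, old WT and old S6K1 KO libraries. With age 3 of 8 (Cd3e, Lyz2 and Coro1a) were higher, and 1 of 8, Cd68, passed as lower in old S6K1 KO than in old WT. All 8 had log2 fold changes below 0 between genotypes (median -0.80). Of these, 6 had an unadjusted p below 0.05 in edgeR, and 3 did not overlap in range. Of 12 clock genes, Npas2 (0.99) and Cry1 (0.69) were higher and Nr1d1 (-1.46) and Ciart (-2.39) lower with age on the log2 scale. Between genotypes 0 of 12 passed the test and 1 of 12 had an unadjusted p below 0.05. Over all genes tested, 18.8% passed with age and 0.533% between genotypes. In the latter comparison 11.6% of all genes had an unadjusted p below 0.05 in edgeR and 3.20% did not overlap in range. Skeletal muscle transcripts (5 genes) were all at 0 in young WT and reached 17.5 CPM in sum in 1 old S6K1 KO library. Of 5 adipocyte genes 2 had enough counts to be tested. Of these, Cidec changed with age (-3.21) and Fabp4 did not pass (-0.094, adjusted p = 0.833). Adipoq, Plin1 and Lep, not tested, had young WT means of 0.0313, 0.0125 and 0 CPM. The part of these marker differences in the results that follow was not tested, and in whole tissue fewer cells of a type and less RNA per cell cannot be told apart.

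With age, in wild-type liver, Pklr rose 1.89-fold and Gckr 1.23-fold, Gys2 fell to 0.633 and Pcx to 0.736 of the young level, and no difference was detectable in the gluconeogenic transcripts Pck1, Fbp1 and G6pc or in Slc2a2. Thus 4 of 9 members passed the test (adjusted p from edgeR's quasi-likelihood test over all genes, threshold 0.05), 2 higher and 2 lower, where 18.8% of all genes tested passed, 9.92% as higher and 8.91% as lower. Between genotypes at 600 days 0 of 9 passed, against 0.533% of all genes. In old S6K1 KO against young WT livers 5 of 9 passed, 3 higher and 2 lower, against 23.3% of all genes (12.0% higher, 11.3% lower). These comparisons share libraries, so that their values for a gene are not independent of each other. The members were chosen with earlier results of these data known, so the shares beside all genes are descriptions and no test of the list.

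**Figure D1:**
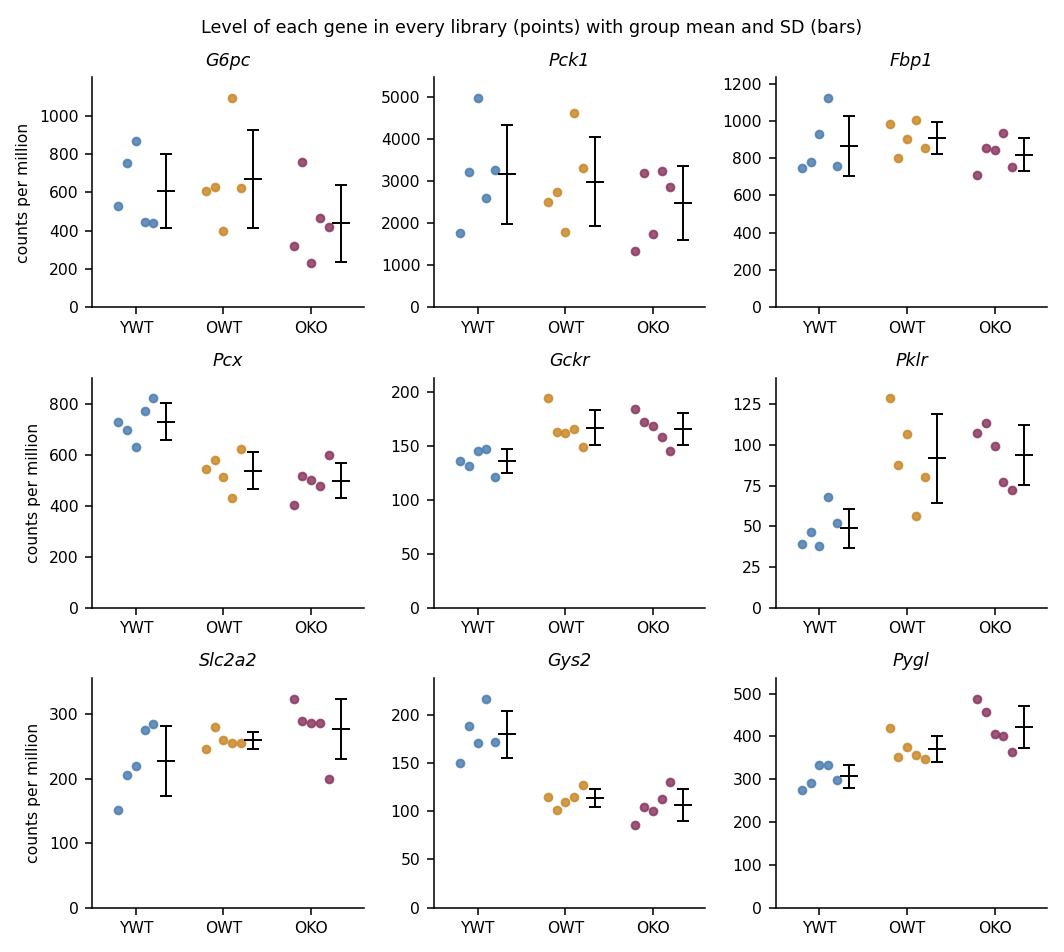
CPM (vertical axis, starting at 0) of each of the 9 genes in the 5 libraries of young WT (YWT), old WT (OWT) and old S6K1 KO (OKO) liver (points), with the group mean and SD as bars to the right. Gys2 and Pcx are lower in every old WT library than in any young WT library, Gckr and Pygl are higher in every one, and the G6pc and Pck1 points spread widely within each group.

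The levels spanned a wide range. Per kb of exon, the scale on which genes can be compared, the mean in young WT liver was highest for Pck1 at 924 ± 343 CPM per kb (SD, n = 5), followed by Fbp1 at 509 ± 94.2, G6pc at 251 ± 79.6 and Pcx at 171 ± 17.0. Slc2a2 (82.5 ± 19.9), Pygl (80.0 ± 6.81), Gys2 (67.6 ± 9.35) and Gckr (67.5 ± 5.37) formed a second tier whose neighbours overlapped in range, and Pklr, at 15.04 ± 3.76, was the lowest. The highest mean exceeded the lowest 61.5-fold in young WT, 30.8-fold in old WT and 24.9-fold in old S6K1 KO liver. Pck1 stood above Fbp1 in 5 of 5 young WT, 4 of 5 old WT and 4 of 5 old S6K1 KO libraries, although the ranges of the 2 genes overlapped in each group. The order changed at Gys2, which was level with Gckr in young WT liver (above it in 3 of 5 libraries) and lay below Gckr in all 10 old libraries without overlap in range, at 42.8 ± 3.51 against 82.8 ± 8.16 CPM per kb in old WT and 40.1 ± 6.20 against 82.2 ± 7.29 in old S6K1 KO. Pygl and Slc2a2 overlapped in range in each group, with Pygl the higher in 3 of 5 young WT, 3 of 5 old WT and 5 of 5 old S6K1 KO libraries.

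**Figure D2:**
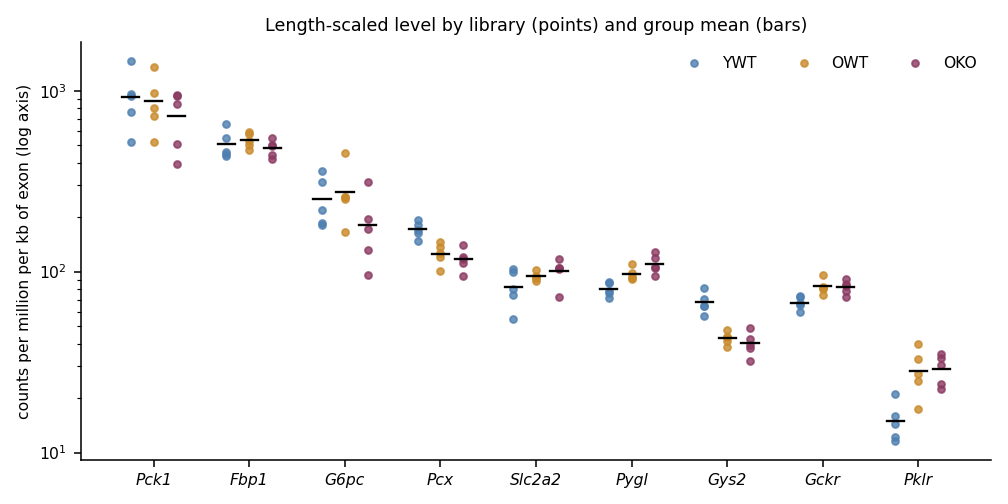
Level per kb of exon (CPM per kb, log axis) of the 9 genes in every library (points, coloured by group) with group means (bars), ordered by the young WT mean. Gys2 lies beside Gckr in young WT and below it in old WT and old S6K1 KO libraries, and Pklr is lowest in each group.

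The gluconeogenic enzymes were examined first. Pcx (ENSMUSG00000024892, chr19:4510472-4621752 on NCBIM37, the mm9 build of the counts), which turns pyruvate into oxaloacetate in mitochondria, was at 728, 698, 632, 774 and 822 CPM in young WT and 544, 581, 513, 430.3 and 623 in old WT livers. In old S6K1 KO livers it was at 404, 515, 501, 477 and 599. Here and for every gene the order is young WT 1, 2, 3, 4 and 6, old WT 1, 4, 5, 7 and 10, and old S6K1 KO 1, 2, 4, 5 and 6. All 5 old WT libraries were below all 5 young WT libraries, and so were all 5 old S6K1 KO libraries. The log2 fold change with age was -0.44 (SE 0.117, adjusted p = 0.0166), from 731 ± 72.5 to 538 ± 73.0 CPM (SD, n = 5). Old S6K1 KO livers, at 499 ± 70.3 CPM, differed from old WT by -0.11 (SE 0.117, adjusted p = 0.794), with 2 SE either side spanning -0.34 to 0.13. For the same livers the difference from young WT was -0.55 (SE 0.117, adjusted p = 0.00387).

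Pck1 (ENSMUSG00000027513, chr2:172978549-172984774), which makes phosphoenolpyruvate from oxaloacetate, was the most abundant member and among the most variable. It was at 1776, 3214, 4976, 2605 and 3277 CPM in young WT and 2499, 2739, 1791, 4631 and 3318 in old WT livers. Old S6K1 KO libraries held 1348, 3189, 1742, 3258 and 2878. Within each group the highest library exceeded the lowest by more than the groups differed from each other. The log2 fold change was -0.081 (SE 0.299, adjusted p = 0.876) with age and -0.27 (SE 0.299, adjusted p = 0.799) between genotypes. An interval of 2 SE either side spanned -0.68 to 0.52 and -0.87 to 0.33. The sign of the age difference turned when young WT 3, the highest library (0.15), or old WT 5, the lowest of its group (0.056), was left out.

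G6pc (ENSMUSG00000078650, chr11:101228875-101239217), which releases free glucose from glucose-6-phosphate, was at 529.8, 751, 866, 446 and 439.8 CPM in young WT and 609, 628, 398, 1090.4 and 621 in old WT livers. The 5 old S6K1 KO livers had 319.8, 757, 232, 469 and 418. Its lowest levels were in old S6K1 KO 4 and 1, below every WT library, whereas old S6K1 KO 2 was above 4 of the 5 old WT libraries. The mean was 669 ± 254 CPM in old WT and 439 ± 199.6 in old S6K1 KO (SD, n = 5), a log2 fold change of -0.61 (SE 0.303, adjusted p = 0.46). Its unadjusted p in edgeR was 0.0618, and 2 SE either side spanned -1.21 to -0.0019. With age the log2 fold change was 0.14 (SE 0.302, adjusted p = 0.777), and it turned to -0.097 without old WT 7, the library with the most G6pc. Over the 15 leave-outs of 1 library the genotype difference stayed below 0, between -0.90 and -0.37.

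Fbp1 (ENSMUSG00000069805, chr13:62966113-62989642), the phosphatase of fructose bisphosphate, varied less than Pck1 and G6pc. Young WT libraries held 745 to 1120.4 CPM, old WT libraries 799 to 1005 and old S6K1 KO libraries 709.8 to 933, and the 3 ranges overlapped. The log2 fold change was 0.071 (SE 0.121, adjusted p = 0.719) with age and -0.15 (SE 0.121, adjusted p = 0.685) between genotypes. These spanned -0.17 to 0.31 and -0.39 to 0.09 at 2 SE either side. Coefficients of variation within groups were 31.7 to 45.5% for G6pc, 35.4 to 37.1% for Pck1, 9.55 to 18.5% for Fbp1 and 9.92 to 14.1% for Pcx.

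On the glycolytic side, Pklr (ENSMUSG00000041237, chr3:88940064-88950706), the liver pyruvate kinase of the last step of glycolysis, showed the largest difference with age among the members. It was at 39.3, 46.7, 37.7, 67.9 and 51.7 CPM in young WT and 129, 87.6, 107, 56.2 and 80.0 in old WT livers. Levels in old S6K1 KO livers were 108, 114, 99.1, 77.0 and 72.5. Of the old WT libraries 4 of 5 were above all young WT libraries, old WT 7 lay within the young range, and all 5 old S6K1 KO libraries were above it. The mean rose from 48.7 ± 12.2 to 91.8 ± 27.4 CPM with age (SD, n = 5), a log2 fold change of 0.92 (SE 0.206, adjusted p = 0.00693). Old S6K1 KO livers stood at 94.0 ± 18.4 CPM, 0.95 (SE 0.207, adjusted p = 0.00436) from young WT and 0.034 (SE 0.204, adjusted p = 0.976) from old WT. The sign of the last difference turned without old WT 7 (-0.10), old WT 10 (-0.012), old S6K1 KO 1 (-0.019) or old S6K1 KO 2 (-0.049), and with library totals in place of TMM scaling (-0.037). Pklr shares 711 exon bases with Hcn3 on the opposite strand, and since the strand setting of the counting is not given in the sources used here, their reads cannot be assigned with certainty. Counts assigned to Hcn3 came to 4.2% of those of Pklr.

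Gckr (ENSMUSG00000059434, chr5:31599954-31629673) encodes a regulatory protein of hepatic glucose metabolism that responds to fructose phosphates. It was at 135, 131, 145, 147 and 120.4 CPM in young WT and 194, 162, 162, 166 and 149 in old WT livers. In old S6K1 KO livers it was at 184, 172, 168, 158 and 145. Each old WT library was above each young WT library, though the gap between the lowest old and the highest young library was small. The log2 fold change with age was 0.29 (SE 0.0868, adjusted p = 0.0277), from 136 ± 10.8 to 167 ± 16.4 CPM (SD, n = 5). Old S6K1 KO livers, at 165 ± 14.7 CPM, differed by 0.28 (SE 0.0869, adjusted p = 0.0272) from young WT. Both calls were close to the threshold. Among the leave-outs of 1 library, the age call was lost without young WT 1 (adjusted p = 0.058), young WT 2 (0.0631) or old WT 1 (0.0804), and among other filters it was lost with none on low counts (0.0537). For old S6K1 KO against young WT the call was lost without young WT 1 (0.0538), young WT 2 (0.0594), old S6K1 KO 1 (0.0675), old S6K1 KO 2 (0.0504) or old S6K1 KO 4 (0.0576), without the filter (0.0586) and with library totals alone (0.0512). Between genotypes Gckr differed by -0.0096 (SE 0.0868, adjusted p = 0.988), with 2 SE either side spanning -0.18 to 0.16. This sign turned without old WT 1 (0.048) or old S6K1 KO 6 (0.034).

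Slc2a2 (ENSMUSG00000027690, chr3:28596825-28627278) encodes GLUT2, the transporter through which glucose enters and leaves hepatocytes. Young WT libraries held 151 to 285 CPM, old WT libraries 246 to 281 and old S6K1 KO libraries 199.7 to 324. The old WT livers were the most alike, with a coefficient of variation of 5.02% against 24.1% in young WT and 16.6% in old S6K1 KO. No difference passed the test, at 0.19 (SE 0.151, adjusted p = 0.401) with age, 0.10 (SE 0.151, adjusted p = 0.871) between genotypes and 0.29 (SE 0.151, adjusted p = 0.18) for old S6K1 KO against young WT. Within old S6K1 KO, library 6 was the lowest, at 199.7 CPM, below all old WT livers, and the other 4 were above all of them.

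Glycogen synthesis and breakdown were represented by the liver forms of synthase and phosphorylase, whose differences with age had opposite signs. Gys2 (ENSMUSG00000030244, chr6:142371133-142421629), the liver glycogen synthase, was at 150.3, 188, 171, 217 and 172 CPM in young WT and 115, 101, 110.0, 115 and 127 in old WT livers. Old S6K1 KO libraries held 85.5, 104, 100.4, 113 and 130.2. Every old library of either genotype was below every young library. The log2 fold change was -0.66 (SE 0.113, adjusted p = 0.00152) with age, from 179.7 ± 24.8 to 114 ± 9.33 CPM (SD, n = 5). For old S6K1 KO, at 107 ± 16.5 CPM, it was -0.75 (SE 0.113, adjusted p = 0.000434) against young WT. Between genotypes it was -0.094 (SE 0.113, adjusted p = 0.819), where 2 SE either side spanned -0.32 to 0.13. Its age call and that of Pklr held under all 9 other analysis settings and under each of the 15 leave-outs of 1 library.

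Pygl (ENSMUSG00000021069, chr12:71291798-71332475), the liver glycogen phosphorylase, was at 275, 292, 333, 334 and 298 CPM in young WT and 420.1, 353, 374, 357 and 347 in old WT livers. The 5 old S6K1 KO livers had 488, 456, 405, 401 and 363. All old WT libraries were above all young WT libraries, and old S6K1 KO 1 and 2 were above all old WT libraries. The age difference did not pass the threshold, at 0.27 (SE 0.0934, adjusted p = 0.0511), from 306 ± 26.1 to 370.2 ± 29.7 CPM (SD, n = 5). It did pass without young WT 3 (adjusted p = 0.0448), old S6K1 KO 1 (0.0398) or old S6K1 KO 6 (0.0409), and with DESeq2 (0.0237), limma voom (0.047), library totals alone (0.0393) or a minimum of 10 counts in every library (0.0496). Old S6K1 KO livers, at 422 ± 49.5 CPM, were 0.46 (SE 0.0935, adjusted p = 0.00278) from young WT. They were 0.19 (SE 0.0933, adjusted p = 0.451) from old WT, with 2 SE either side spanning 0.0039 to 0.38. The unadjusted p of this difference in edgeR was 0.0578.

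Of the 9 members, 4 (Pcx, Gckr, Gys2 and Pygl) had groups that did not overlap between old and young WT, against 11.4% of all genes tested. Between genotypes 0 of 9 did so, against 3.20%, and 4 (Pcx, Pklr, Gys2 and Pygl) did so between old S6K1 KO and young WT, against 13.9%. The median log2 fold change over the members was 0.14 with age, -0.094 between genotypes and -0.081 for old S6K1 KO against young WT, beside 0.0080, 0.00080 and -0.0055 over all genes tested. For genotype, 0 of 9 members passed with edgeR, with DESeq2 and with limma voom, 0 of 9 had an unadjusted p below 0.05 in edgeR (11.6% of all genes did), and the lowest adjusted p was 0.451 (Pygl). Over all genes 76 were called between genotypes, and this count lay between 9 and 108 over the 15 leave-outs of 1 library, while 0 of 9 members were called in each of them.

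**Figure D3:**
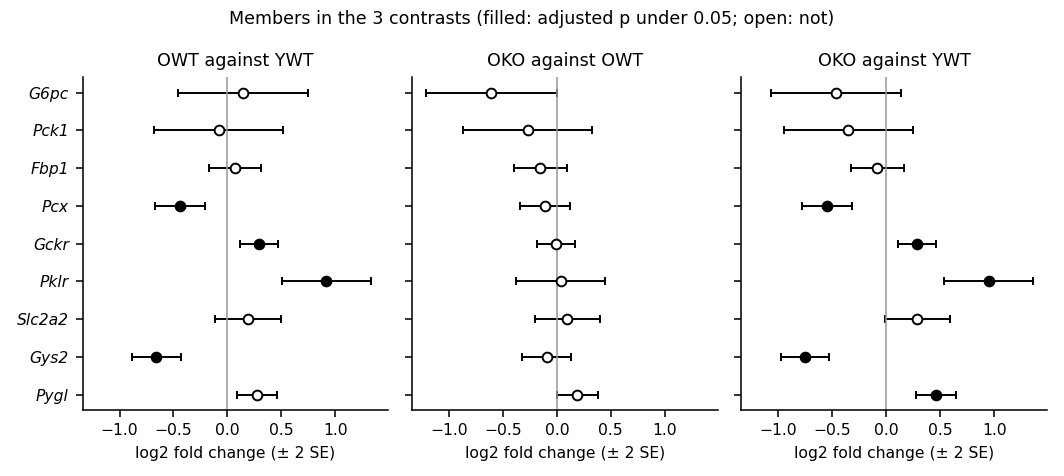
Log2 fold change (horizontal axis, with bars of 2 SE either side) of the 9 genes for old WT against young WT, old S6K1 KO against old WT and old S6K1 KO against young WT, filled where the adjusted p was under 0.05. The called genes are Pcx, Gckr, Pklr and Gys2 in the first panel, none in the second, and these 4 with Pygl in the third.

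Because synthase and phosphorylase act in opposite directions, their ratio was taken within each library, which removes the scaling between libraries. The log2 ratio of Gys2 to Pygl CPM was -0.87, -0.63, -0.96, -0.62 and -0.79 in young WT, -1.87, -1.80, -1.77, -1.63 and -1.45 in old WT and -2.51, -2.13, -2.01, -1.83 and -1.48 in old S6K1 KO livers. All 10 old libraries were below all 5 young ones, and the genotypes overlapped. Every old library had less Gys2 and more Pygl than any young one, so the ratio had to separate them. The group means were -0.78 ± 0.15, -1.70 ± 0.16 and -1.99 ± 0.38 (SD, n = 5), which in linear terms is 0.584, 0.307 and 0.251 Gys2 counts per Pygl count. The log2 ratio of Pck1 to Pklr averaged 5.98 ± 0.69, 5.01 ± 0.92 and 4.66 ± 0.76, and that of G6pc to Pklr 3.62 ± 0.72, 2.84 ± 0.91 and 2.13 ± 0.68, in the same order of groups, with overlap between neighbouring groups for both.

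**Figure D4:**
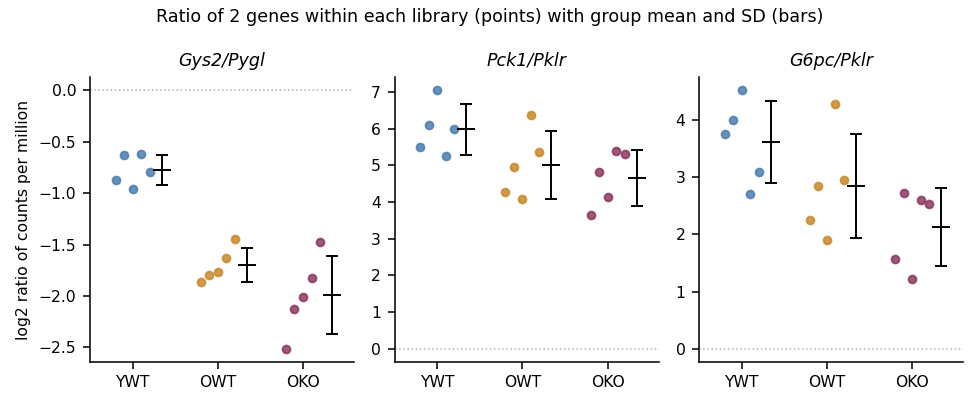
Log2 ratio of the CPM of 2 genes within each library (points) for Gys2 to Pygl, Pck1 to Pklr and G6pc to Pklr, by group, with group mean and SD (bars); the dotted line marks equal CPM. The Gys2 to Pygl ratio separates all old libraries from all young ones, as Gys2 and Pygl each do alone. The other ratios overlap between old WT and young WT.

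Related isoforms were examined for 7 of the members, all but Pcx and Gckr. The liver form took a mean of 98.7 to 99.0% of the summed CPM per kb of G6pc, G6pc2 and G6pc3. The share was 99.8 to 99.9% for Pck1 over Pck1 and Pck2, 99.9% for Fbp1 over Fbp1 and Fbp2 in each group, 98.1 to 98.9% for Gys2 over Gys2 and Gys1, and 98.4 to 98.7% for Pygl over Pygl, Pygb and Pygm. For glucose transport, Slc2a2 took 93.5% (young WT), 95.3% (old WT) and 95.6% (old S6K1 KO) of the sum with Slc2a1, Slc2a3, Slc2a4 and Slc2a5. Pyruvate kinase was the exception, with Pklr at 73.2 ± 5.22% of Pklr plus Pkm in young WT, 77.2 ± 6.31% in old WT and 82.6 ± 2.46% in old S6K1 KO livers (SD, n = 5), and ranges that overlapped between neighbouring groups. Pkm, the form of most other tissues and of leukocytes, rose with age by 0.55 (SE 0.109, adjusted p = 0.00348), from 12.9 ± 2.24 to 18.9 ± 1.26 CPM. It stood at 14.3 ± 1.22 CPM in old S6K1 KO livers, -0.40 (SE 0.110, adjusted p = 0.135) from old WT.

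Some of the members varied together across the 15 livers. Correlations of log2 CPM are given as descriptions over 15 libraries that share their groups. Of 36 pairs, 13 had a Pearson r of at least 0.5 in size. G6pc and Pck1 had r = 0.78 (Spearman's rho 0.69), 0.77 after group means were subtracted and 0.71 without the 2 libraries farthest from the median of G6pc. Gckr and Pygl had the highest r, 0.87 (rho 0.88), which was 0.84 with group means subtracted and 0.91 without the 2 libraries farthest from the median of Gckr. Pcx and Gys2 had r = 0.86 (rho 0.85), and 0.49 once group means were subtracted. Gys2 and Pygl, at r = -0.78 (rho -0.80), had -0.24 within groups. Fbp1 had an r under 0.5 in size with each of the other 8 members.

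Among 12125 genes with a mean of at least 1 CPM, the gene most like G6pc was Igfbp1, which encodes an insulin-repressed secreted binding protein of insulin-like growth factors (r = 0.94, and 0.95 with group means subtracted), followed by Bcl2l11 (0.91) and Plk3 (0.89). Igfbp1 was at 78.0, 309.6, 434, 85.3 and 89.0 CPM in young WT and 86.9, 105, 41.9, 461 and 194 in old WT livers. Levels in old S6K1 KO livers were 51.7, 170.4, 17.8, 85.6 and 79.1. Like G6pc and Pck1 it was highest in old WT 7 and young WT 3, and like G6pc it was lowest in old S6K1 KO 4. The genes most like Pck1 were Slc38a2 (0.89), an amino acid transporter, Plk3 (0.86) and Igfbp1 (0.84). Igfbp1 itself did not pass the test, at -0.17 (SE 0.658, adjusted p = 0.886) with age and -1.13 (SE 0.667, adjusted p = 0.539) between genotypes.

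For Pklr the most similar genes were 2310067B10Rik (r = 0.98, and 0.94 with group means subtracted), Ccdc109a (0.94) and Mbtps1 (0.94), and for Pcx they were 1700020O03Rik (0.94), Chkb (0.93) and Acadvl (0.93), a dehydrogenase of mitochondrial fatty acid oxidation. Gckr was most like Tert (0.94), Sorl1 (0.90) and Fkbp9 (0.89), and Slc2a2 most like Ccdc138 (0.91), Prrg1 (0.91) and 5830473C10Rik (0.90). Those nearest to Gys2 were Agpat6 (0.94), Ccbp2 (0.93) and Cyp4a32 (0.91), and the last fell to 0.52 with group means subtracted. Pygl was nearest to Stxbp6 (0.93), Iglv1 (0.91) and Ido2 (0.91), and Fbp1 had the weakest neighbours, Chst14 (0.75), Cmtm7 (0.73) and Phactr1 (0.73). Each of these was chosen as the highest of 12125 values, and Iglv1 and Cyp4a32 belong to families with close copies, between which short reads may be split.

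The wider pathway was followed over 110 other genes, of which 106 were tested. With age 10 were higher and 12 lower, 20.8% of those tested beside 18.8% of all genes, and the median log2 fold change was -0.084 beside 0.0080 over all genes. The count of 22 lay between 14 and 34 over the leave-outs of 1 library, at 14 without young WT 2 or old WT 1 and 34 without young WT 6. By role, 0 higher and 2 lower were found of 17 genes of gluconeogenesis and substrate entry, 4 and 5 of 25 of glycolysis, and 0 and 1 of 11 of the pyruvate dehydrogenase complex and its kinases. Passing counts were 2 and 3 of 22 of glycogen metabolism and 3 and 1 of 26 hormone receptors and regulators. In the glucose transporter family they were 1 and 0 of 5, and the 1 was Slc2a9, a transporter of urate.

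**Figure D5:**
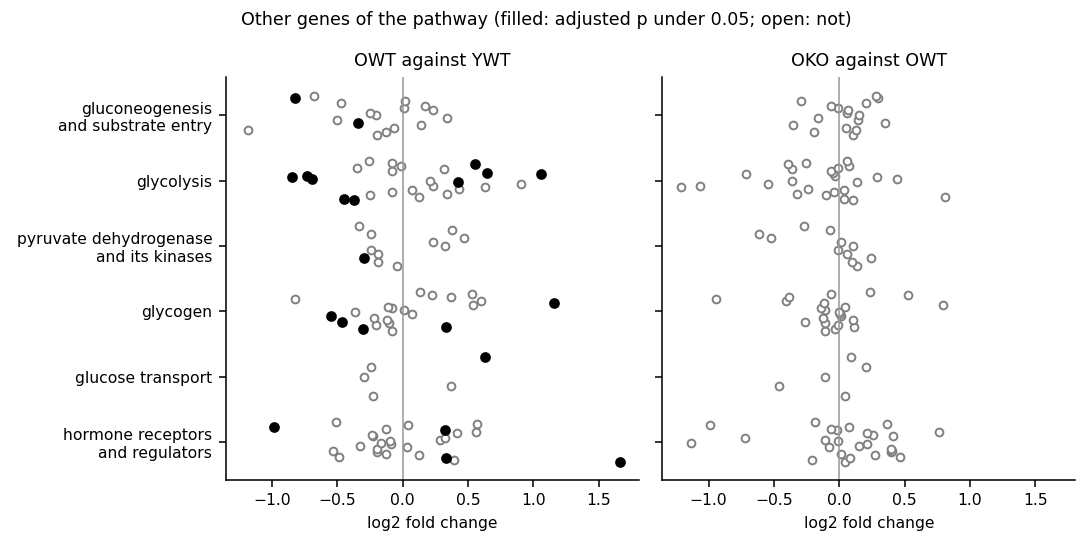
Log2 fold change of the 106 tested genes of the wider pathway (points, 1 per gene, in 6 rows by role) for old WT against young WT and old S6K1 KO against old WT, filled where the adjusted p was under 0.05. With age 22 points are filled, on both sides of 0, and between genotypes none is.

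The largest age difference in this list was in Adra1b, the alpha-1B adrenergic receptor through which catecholamines stimulate glycogen breakdown. Adra1b was at 10.3, 12.2, 17.4, 23.3 and 19.1 CPM in young WT and 60.4, 53.2, 55.3, 44.1 and 47.1 in old WT livers. In old S6K1 KO livers it was at 61.9, 57.9, 49.3, 57.8 and 41.0. All old livers were above all young ones, and the log2 fold change was 1.66 (SE 0.186, adjusted p = 0.000103) with age and 0.042 (SE 0.180, adjusted p = 0.964) between genotypes. Ppp1r3c, which directs protein phosphatase 1 to glycogen, rose by 1.16 (SE 0.260, adjusted p = 0.00673) with age, from 75.4 ± 31.5 to 169 ± 38.7 CPM (SD, n = 5). Of 5 glycogen genes that passed, Gbe1, the branching enzyme (0.33), rose like Ppp1r3c. Pgm1 (ENSMUSG00000029171, -0.55), Gyg, the glycogenin primer (-0.47), and Gaa, the lysosomal glucosidase (-0.31), fell. Pgm1 was scarce, at 6.35 ± 0.585 CPM in young WT. The more abundant Pgm2 (ENSMUSG00000025791), at 226 ± 20.9 CPM in young WT, did not pass with age (0.068, SE 0.0835, adjusted p = 0.607). Both Pgm symbols are those of the older GENCODE M1 annotation and may be assigned differently in newer ones. The identifiers, not the symbols, therefore tell which enzyme is meant. Gbe1, Pgm1, Pgm2, Gyg and Gaa were picked out after their values were seen.

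Transcripts of the bifunctional Pfkfb enzymes, listed under glycolysis, moved in both directions with age. Pfkfb1, the liver form, fell by 0.70 on the log2 scale (SE 0.179, adjusted p = 0.0143), from 31.0 ± 9.01 to 19.2 ± 3.17 CPM. Pfkfb2 changed by -0.85 (SE 0.188, adjusted p = 0.00624) and the scarce Pfkfb3, at 7.19 ± 1.56 CPM in young WT, by -0.73 (SE 0.181, adjusted p = 0.0118). Pfkfb4, scarcer still at 0.7096 ± 0.0842 CPM in young WT, rose by 1.06 (SE 0.217, adjusted p = 0.00432). Slc37a4, which carries glucose-6-phosphate to G6pc in the endoplasmic reticulum, fell from 198 ± 55.1 to 112 ± 21.0 CPM, -0.82 (SE 0.193, adjusted p = 0.00874). Ppargc1a, the coactivator PGC-1 alpha, fell from 39.8 ± 21.5 to 20.1 ± 8.76, -0.98 (SE 0.324, adjusted p = 0.0443).

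Between genotypes 0 of 106 genes of the wider list passed the edgeR test, 14 had an unadjusted p below 0.05 (11.6% of all genes did), the lowest adjusted p was 0.102, and the median log2 fold change was 0.0023. Calls under other settings were of scarce genes. Hk2, a hexokinase, was called with DESeq2 (-1.21, adjusted p = 0.0137) and after thinning to the smallest library (-1.56, 0.0415). The other calls were Hk3, the hexokinase of myeloid cells, with DESeq2 (-1.07, 0.0325) and when the 2 groups were fitted alone (-1.07, 0.0431), and Pfkfb4 without old S6K1 KO 1 (-0.98, 0.0348). Here limma voom called none. In the edgeR fit of all 3 groups Hk2 went from 2.07 ± 0.606 to 0.887 ± 0.393 CPM, -1.21 (SE 0.313, adjusted p = 0.102). The step for Hk3 was from 3.87 ± 0.686 to 1.83 ± 0.529, -1.07 (SE 0.307, adjusted p = 0.152). In the same livers the summed leukocyte markers were 116 to 213 CPM in old WT and 61.6 to 120.3 in old S6K1 KO. The part of leukocyte content in these values was not tested.

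Old S6K1 KO against young WT gave 15 higher and 9 lower of the 106, 22.6% beside 23.3% of all genes. Ppp1r3b, the main glycogen-targeting subunit of protein phosphatase 1 in liver, was at 171, 177, 301, 288 and 210.1 CPM in young WT and 334, 385, 461, 149.9 and 334 in old WT livers. Old S6K1 KO libraries held 663, 551, 509, 758 and 409.6. Its 5 old S6K1 KO livers were above all young WT livers, at 1.33 (SE 0.253, adjusted p = 0.00194). The steps between were 0.54 (SE 0.250, adjusted p = 0.147) with age and 0.80 (SE 0.251, adjusted p = 0.187) between genotypes, neither of which passed. Also among the 8 largest were Adra1b at 1.71 (SE 0.186, adjusted p = 3.54e-05), Nr0b2, which encodes the corepressor SHP, at 1.32 (SE 0.334, adjusted p = 0.0104), and Ppp1r3c at 1.05 (SE 0.260, adjusted p = 0.0093). Aldoc, a scarce aldolase form, followed at 0.93 (SE 0.322, adjusted p = 0.0472) and Slc2a9, a transporter of urate, at 0.72 (SE 0.157, adjusted p = 0.00435), while Pfkfb3 at -0.77 (SE 0.183, adjusted p = 0.00742) and Gyg at -0.73 (SE 0.151, adjusted p = 0.00335) were lower.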

How the data were processed

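RNA was measured in 15 whole-liver samples by stranded poly(A) sequencing with single-end reads. The authors mapped reads to mm9 with TopHat2 2.0.11 and counted them per gene with HTSeq, and the deposited values are raw counts, neither normalized nor pooled. The annotation and strand setting of the counting are not given in the sources used here. The submitters' processing notes also name DESeq2 1.18.1 and CASAVA. Titles of the samples gave each library's group and number.

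Counts were TMM-scaled in edgeR 4.0.16 (R 4.3.3), filtered with filterByExpr and fitted with glmQLFit and glmQLFTest over all 15 libraries, with group as the sole term. P-values were adjusted by Benjamini-Hochberg over 14258 genes (threshold 0.05). Each edgeR SE was the size of the log2 fold change divided by the square root of its F statistic. A span of 2 SE either side can exclude 0 where the unadjusted p is above 0.05, as for G6pc and Pygl between genotypes. Alternatives were other scalings and filters, DESeq2 1.42.0, limma voom (limma 3.58.1), the 2 groups alone, thinned counts, a replicate block and leaving out each library. Correlations used log2 CPM with a prior count of 2. Gene coordinates and lengths of exons were taken from the GENCODE M1 annotation (NCBIM37).

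The 9 genes and all lists were chosen with earlier results of these data known. Named genes are the members, up to 8 called genes of the wider list per contrast by size of change, related isoforms, and the 3 genes most correlated with each member; any other is said to have been picked out afterwards, or was called under an alternative. Some genes of the wider list are not reported here. Totals of 21801754 to 38065359 counts make counting error small for the members. Pairs of replicates differed by more than sampling noise (chi-square per degree of freedom 19.7 to 128).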

Additional observations from a re-analysis of the deposited data

How the results depend on the processing

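Over the 9 other analysis settings, the 27 member results (9 genes in 3 comparisons) gave 231 values with the same sign and side of the threshold, 5 calls lost, 4 gained and 3 signs turned. Over the 15 leave-outs of 1 library they gave 384, 8, 3 and 10. The signs turned where no call was made: Pklr between genotypes with library totals alone (-0.037), and, over the leave-outs, G6pc with age (-0.097 to 0.32), Pck1 with age (-0.29 to 0.15), Fbp1 for old S6K1 KO against young WT (-0.13 to 0.023), Gckr between genotypes (-0.051 to 0.048) and Pklr between genotypes (-0.10 to 0.18). Counts over all genes between genotypes varied with the method, at 121 with library totals, 309 with DESeq2 and 23 with limma voom beside 76. Leaving out 1 library gave 9 to 108 there and 1748 to 3284 with age beside 2685. Of the wider list, DESeq2 called 2 genes between genotypes, the 2 groups alone 1 and thinned counts 1, and the leave-outs 0 to 1, beside 0, and with age the leave-outs gave 14 to 34 beside 22. The cause of these shifts was not tested.

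Equal replicate numbers did not pair the livers: deviations from the group means of same-numbered libraries correlated at -0.153 to 0.077 over 9 pairs, within the -0.267 to 0.355 of the others. With the replicate number as a block the counts with age fell to 899 over all genes, 2 of the members (Gys2 and Pklr) and 7 of the wider list, and that between genotypes to 6. Pcx (-0.38, adjusted p = 0.0882) and Gckr (0.34, 0.0804) then missed the threshold with age, and the signs of Pck1 with age (0.070) and Pklr between genotypes (-0.20) turned.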
